A study of Mus musculus with 15 samples.

Results

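The autophagy genes described here were 34 of the 21761 genes in an RNA-seq table of mouse splenic B cells. They were chosen by symbol, with no cut on a measured value, but with earlier results of these data known. They were every gene whose symbol begins with Atg and a digit, and 16 further named genes. By role they comprised 5 genes of the initiation complex, 3 of the phosphatidylinositol 3-kinase (PI3 kinase) complex, 6 lipid transfer proteins and readers of its product, 7 conjugation genes, 4 ATG4 proteases, 5 members of the ATG8 family, 3 cargo receptors and the transcription factor Tfeb.

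Autophagy encloses parts of the cytoplasm in a membrane sac, the autophagosome, which then fuses with the lysosome. A kinase complex starts the process, a lipid kinase marks the site with phosphatidylinositol 3-phosphate (PI3P), lipid transfer proteins feed the growing membrane, and a conjugation cascade attaches ATG8 proteins to it, where cargo receptors dock. In mouse plasma cells, autophagy is known to limit the size of the endoplasmic reticulum and to sustain survival and antibody responses.

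The study treated B cells with GSK-J4, an inhibitor of KDM6A and KDM6B, the demethylases that take the repressive mark H3K27me3 off histones. All cells were CD43-negative splenic B cells of female C57BL/6J wild-type mice, whose age is not given in the labels. CD138+ GSK-J4 and CD138+ DMSO cells (plasmablasts per the labels), and GL7+ GSK-J4 and GL7+ DMSO cells (activated B cells per the labels), came from cultures with LPS, IL-2 and IL-5 for 3 days in 250 nM GSK-J4 or in the solvent DMSO. Naive cells were unstimulated and untreated. Each of the 5 groups had 3 libraries, whose replicate number named the mouse, except for a CD138+ GSK-J4 library numbered 4, which matched its group and no single mouse. Values below follow replicates 1, 2 and 3, or 1, 2 and 4 in CD138+ GSK-J4 cells. The CD138+ and GL7+ fractions were magnetically enriched, so each may hold other cells of the culture. In such bulk samples, fewer cells of a type and less RNA per cell cannot be told apart.

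Levels are RPKM, reads per kilobase of gene length scaled to the same total of gene-assigned reads in each library, given per library or as mean ± SD over n = 3. Log2 changes were computed from log2(RPKM + 1) and so are too small for genes of low level. Adjusted p-values are from limma over the 10866 genes that reached 1 RPKM in 3 or more libraries, with a threshold of 0.05. Depth was 6241186 to 7712473 reads in CD138+ GSK-J4 libraries, 9676747 to 11636299 in CD138+ DMSO, 9174696 to 12213699 in GL7+ GSK-J4, 9806767 to 11519359 in GL7+ DMSO and 2636004 to 13190023 in naive libraries. Every CD138+ GSK-J4 library was thus shallower than every CD138+ DMSO library, and naive replicate 2 was the shallowest of all. The summed level of 8 plasmablast markers was 4826 to 5172 RPKM in CD138+ GSK-J4 cells, 4636 to 4886 in CD138+ DMSO cells, 1479 to 1631 in GL7+ GSK-J4 cells, 1208 to 1346 in GL7+ DMSO cells and 413 to 458 in naive cells. Mean Sdc1, which encodes CD138, was 40.1 RPKM in CD138+ GSK-J4 and 32.6 in CD138+ DMSO cells, against 2.88 in GL7+ GSK-J4 and 1.37 in GL7+ DMSO cells. The 8 activated B cell markers summed to 358 to 405 RPKM in GL7+ GSK-J4 and 461 to 477 in GL7+ DMSO cells. Their sum was 112 to 143 in CD138+ GSK-J4, 173 to 181 in CD138+ DMSO and 476 to 571 in naive cells. This list thus did not set GL7+ cells above naive cells.

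Of the 34 genes, 28 had a promoter window in RefSeq (mouse build GRCm38.p6), 250 bases before to 50 after the transcript start. The E-box CACGTG, the core of the element that TFEB binds, was in the windows of 4 of these 28 genes (14.3%), namely Atg3, Atg5, Atg7 and Atg14. It was in the windows of 8.09% of all 27025 genes that had one. The full TFEB site, the CLEAR element, in which GT precedes and AC follows that E-box, was in 0 of the 28 and in 0.37% of all 27025 genes. An element of the plasma cell factor XBP1, TGACGTGG, was in 0 of the 28 and in 0.714% of all 27025 genes. Both strands were searched. The windows of Wipi1 (chr11:109611390-109611639, minus strand) and Atg13 (chr2:91710593-91710842, minus strand) are shown because these genes had the largest rises in CD138+ over GL7+ cells. Tfeb (chr17:47736787-47737036, plus strand, the first of 3 annotated starts) had the largest fall there. Atg3 (chr16:45158579-45158828, plus strand) was the autophagy gene called higher with GSK-J4, and Atg5 (chr10:44268089-44268338, plus strand) was 1 of 14 genes that rose in CD138+ over GL7+ cells. The other E-box genes did not pass in that contrast: Atg3 (log2 change -0.03, adjusted p = 0.67), Atg7 (0.15, 0.15) and Atg14 (-0.01, 0.97). The windows of Atg7 and Atg14 are not shown. A link between E-boxes and these changes was not tested. Each line holds the 250 bases before the start, 5′ to 3′ on the gene's strand, from RefSeq, with E-boxes in capitals.
Wipi1: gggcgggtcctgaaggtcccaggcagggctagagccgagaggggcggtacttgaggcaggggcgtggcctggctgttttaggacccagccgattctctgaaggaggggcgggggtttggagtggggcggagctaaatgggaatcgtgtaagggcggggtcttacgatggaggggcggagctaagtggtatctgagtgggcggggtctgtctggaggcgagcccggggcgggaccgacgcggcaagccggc
Atg13: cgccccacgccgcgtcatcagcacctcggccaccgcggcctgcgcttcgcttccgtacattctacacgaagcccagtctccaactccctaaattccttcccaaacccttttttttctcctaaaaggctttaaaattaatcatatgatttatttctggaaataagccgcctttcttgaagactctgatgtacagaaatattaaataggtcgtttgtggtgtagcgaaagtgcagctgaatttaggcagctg
Tfeb: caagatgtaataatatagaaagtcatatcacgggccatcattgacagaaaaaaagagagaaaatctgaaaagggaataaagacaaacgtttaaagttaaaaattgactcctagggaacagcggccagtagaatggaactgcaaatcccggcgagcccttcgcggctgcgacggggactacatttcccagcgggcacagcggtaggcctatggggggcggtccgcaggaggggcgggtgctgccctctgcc
Atg3: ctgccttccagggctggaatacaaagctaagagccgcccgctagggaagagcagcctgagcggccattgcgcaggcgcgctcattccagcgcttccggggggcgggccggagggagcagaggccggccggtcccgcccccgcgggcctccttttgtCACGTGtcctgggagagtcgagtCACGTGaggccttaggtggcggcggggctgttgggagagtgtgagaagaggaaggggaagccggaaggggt
Atg5: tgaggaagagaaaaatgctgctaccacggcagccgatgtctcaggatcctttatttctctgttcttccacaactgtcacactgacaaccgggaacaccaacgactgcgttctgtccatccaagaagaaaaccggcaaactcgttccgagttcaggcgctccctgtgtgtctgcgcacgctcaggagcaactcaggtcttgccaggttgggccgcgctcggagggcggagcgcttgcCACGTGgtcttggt
The Atg3 window held 2 E-boxes, which began 94 and 71 bases before the start, and the Atg5 window held 1, which began 14 bases before it. No E-box stood in these 250 bases of Wipi1, Atg13 or Tfeb.

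Levels of the 34 genes spanned a wide range. Gabarap, an ATG8 protein, was the most abundant, with group means of 109 to 195 RPKM. Sqstm1, which encodes the cargo receptor p62, followed at 87.4 to 145 RPKM, and the other ATG8 genes Gabarapl2 and Map1lc3b at 69.5 to 83.3 and 43.8 to 78.1 RPKM. By their means Gabarap stood above Sqstm1 in every group, while the ranges of Gabarapl2 and Map1lc3b overlap. At the low end stood Atg10, Atg14 and Atg4c, each with a mean under 5 RPKM in every group, and Atg9b.

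Atg9b, a paralog of the membrane scramblase gene Atg9a, was the only one of the 34 below the filter and was not tested. It had 0.205, 0.233 and 0.339 RPKM in CD138+ GSK-J4 cells, against 0.556, 0.441 and 0.443 in CD138+ DMSO cells. In GL7+ cells it had 0.178, 0.335 and 0.210 RPKM with GSK-J4, against 0.445, 0.605 and 0.340 with DMSO, and in naive cells 0.0390, 0 and 0. The GSK-J4 libraries were all below the DMSO libraries in both fractions, at a level of at most 27 reads, and the gene overlaps Nos3 in the annotation. The table's strand setting is not given in the sources used here, so reads of overlapping genes cannot be told apart; this also applies to Becn1 (Cntd1), Map1lc3b (Zcchc14), Atg12 (Ap3s1), Atg4a (Psmd10), Atg4d (Kri1), Wipi1 (Gm39442), Rb1cc1 (4732440D04Rik), Atg5 (Gm19229 and Mir1929), Gabarapl1 (1700101I11Rik), Atg7 (Gm19040 and Gm52917), Atg10 (Gm17450) and Atg16l1 (Gm25395 and Scarna6).

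The comparison of CD138+ with GL7+ cells, both cultured with DMSO, asked how autophagy transcripts differ between plasmablasts and activated B cells. Most of the called genes were higher in CD138+ cells: Wipi1 was 6.87-fold and Atg13 2.62-fold higher by the ratio of means, and initiation genes, ATG8 genes and the receptors Nbr1 and Sqstm1 rose with them. Tfeb, a transcription factor of lysosomal and autophagy genes, was lower. Of 33 tested genes 14 rose and 4 fell. That is 54.5%, near the 58.7% of all tested genes that were called, 21.8% higher and 36.9% lower. The median log2 change was 0.15 over the 33 genes and -0.10 over all tested genes.

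**Figure D1:**
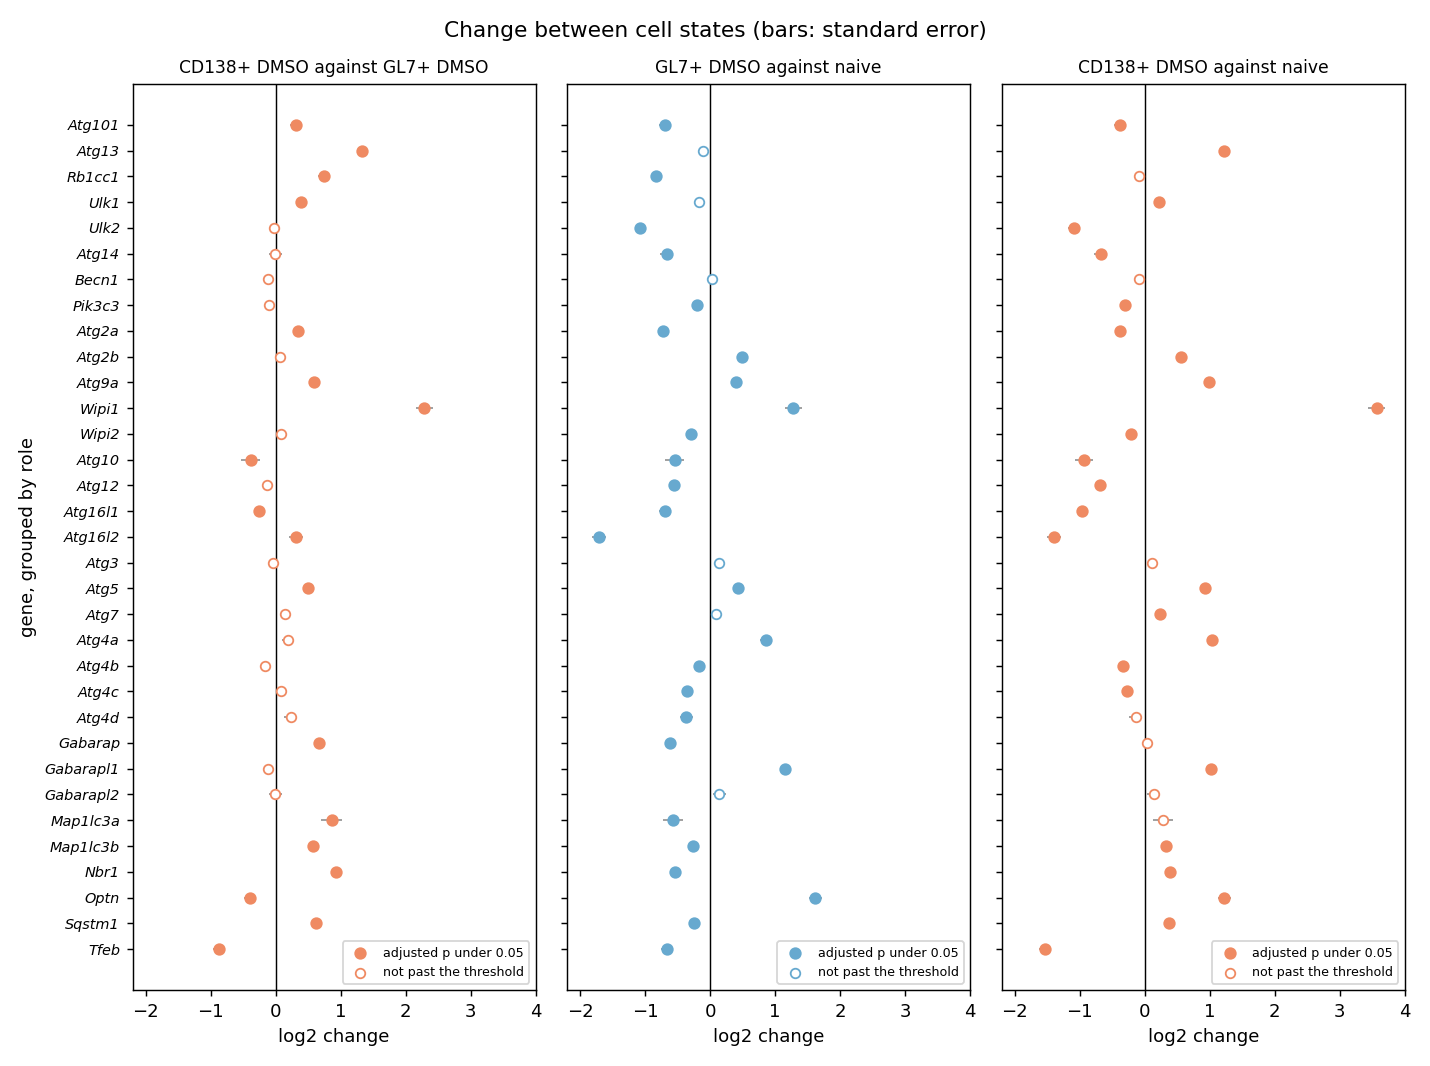
Log2 change of each autophagy gene, on the log2(RPKM + 1) scale, in CD138+ DMSO against GL7+ DMSO, GL7+ DMSO against naive and CD138+ DMSO against naive cells. Bars are 1 SE and filled points have an adjusted p under 0.05. Wipi1 lies farthest to the right in CD138+ against GL7+ cells (2.29), and Tfeb farthest to the left (-0.87).

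In the initiation complex, 4 of 5 genes rose. Atg13, the subunit that links the ULK kinases to their scaffold, had 38.5, 41.9 and 39.98 RPKM in CD138+ DMSO cells, against 16.6, 15.6 and 13.9 in GL7+ DMSO cells (log2 change 1.33, SE 0.08, adjusted p = 4.1e-09). Rb1cc1, which encodes the scaffold FIP200, had 10.03, 10.1 and 11.2 RPKM in CD138+ cells, against 5.72, 6.12 and 5.79 in GL7+ cells (log2 change 0.74, SE 0.08, adjusted p = 2e-06). For both genes, every CD138+ library lay above every GL7+ library. The kinase gene Ulk1 had 7.48, 6.55 and 6.42 RPKM in CD138+ cells, against 4.87, 4.86 and 5.05 in GL7+ cells (log2 change 0.40, SE 0.08, adjusted p = 0.00065), again with no overlap. Its paralog Ulk2 did not pass the test (-0.02, adjusted p = 0.85). Atg101, whose product stabilises ATG13, rose by 0.31 (adjusted p = 0.012), but not without GL7+ DMSO replicate 3 (0.26, adjusted p = 0.056).

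None of the 3 tested genes of the PI3 kinase complex passed the test. Becn1, which encodes the scaffold beclin 1, had 38.2, 38.1 and 37.3 RPKM in CD138+ DMSO cells, against 40.9, 40.5 and 42.01 in GL7+ DMSO cells (log2 change -0.12, adjusted p = 0.085). Although these groups do not overlap, the difference missed the threshold. Leaving out naive replicate 2 changes both the shared estimate of spread and the set of genes tested (10496 in place of 10866), and Becn1 then passed (adjusted p = 0.029). It also passed with library weights (0.0072) and with reads thinned (-0.15, adjusted p = 0.044), that is with every library deeper than the shallowest cultured one thinned to its depth of 6241186 reads. Pik3c3, the catalytic subunit, was at -0.10 (adjusted p = 0.12) and Atg14, the subunit that directs the complex to autophagy, at -0.01 (adjusted p = 0.97).

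Among lipid transfer proteins and PI3P readers, 3 of 5 tested genes rose. Wipi1, a PI3P-binding propeller protein, had 13.1, 13.3 and 12.8 RPKM in CD138+ DMSO cells, against 2.22, 2.12 and 1.35 in GL7+ DMSO cells (log2 change 2.29, SE 0.13, adjusted p = 2.8e-09). No other autophagy gene tested had a larger change in this contrast, and the groups were far apart. Its paralog Wipi2, which recruits ATG16L1, did not pass the test (0.09, adjusted p = 0.14). Atg9a rose by 0.59 (adjusted p = 3.3e-06) and the lipid transfer gene Atg2a by 0.35 (adjusted p = 0.00022), while its paralog Atg2b was at 0.06 (adjusted p = 0.49).

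The 7 conjugation genes were split, with 2 higher and 2 lower. Atg5, which is joined to ATG12 to form part of the ligase, rose by 0.49 (adjusted p = 4e-05). Atg16l2 rose by 0.31 (adjusted p = 0.025), whereas its paralog Atg16l1, which completes that ligase, fell by 0.26 (adjusted p = 0.011). Atg10, the enzyme that passes ATG12 to ATG5, fell by 0.39 (adjusted p = 0.031). Of these, Atg5 kept its call under every alternative. Atg16l1 lost it without CD138+ DMSO replicate 2 (adjusted p = 0.054). Atg16l2 lost it with reads thinned (0.076) and without CD138+ DMSO replicates 1 or 3 or any GL7+ DMSO library (0.053 to 0.092). Atg10 lost it without CD138+ DMSO replicates 1 or 3 or any GL7+ DMSO library (0.05 to 0.12), with no filter (0.062) and with quantile normalization (0.1). The activating enzyme gene Atg7, the ATG8 transferase gene Atg3, Atg12 and the 4 ATG4 protease genes did not pass. Without naive replicate 2, Atg4a (0.18, adjusted p = 0.036), Atg4b (-0.16, adjusted p = 0.027) and Atg4d (0.23, adjusted p = 0.046) passed. With the mouse as a block Atg4d passed (0.23, adjusted p = 0.038), which makes 19 called genes, 15 of them higher. Atg4a and Atg4d also passed with TMM, quantile normalization, library weights and voom (adjusted p = 0.0078 to 0.037).

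In the ATG8 family, 3 of 5 genes rose and the rest did not pass. Gabarap had 169, 179 and 179.5 RPKM in CD138+ DMSO cells, against 113, 112 and 107 in GL7+ DMSO cells (log2 change 0.66, SE 0.05, adjusted p = 9.1e-08). Map1lc3b, the LC3 gene most used as a marker of autophagosomes, had 75.03, 81.4 and 77.9 RPKM in CD138+ cells, against 52.1, 52.8 and 50.7 in GL7+ cells (log2 change 0.58, SE 0.07, adjusted p = 3.2e-06). Its paralog Map1lc3a, at a far lower level, had 8.03, 8.64 and 8.68 RPKM in CD138+ cells, against 4.05, 4.80 and 3.80 in GL7+ cells (log2 change 0.86, SE 0.16, adjusted p = 0.00026). For all 3 the CD138+ libraries lay above the GL7+ libraries. Gabarapl1 (-0.12, adjusted p = 0.19) and Gabarapl2 (-0.01, adjusted p = 0.97) did not pass. The summed RPKM of the 5 genes was 357 ± 4.50 in CD138+ DMSO cells and 263 ± 5.85 in GL7+ DMSO cells, with Gabarap at 47.9 to 50.2% of the sum in CD138+ and 41.9 to 42.3% in GL7+ libraries.

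The cargo receptors moved in different directions. Nbr1 had 40.7, 40.2 and 41.3 RPKM in CD138+ DMSO cells, against 21.3, 21.03 and 20.3 in GL7+ DMSO cells (log2 change 0.93, SE 0.06, adjusted p = 5.7e-09). Sqstm1 had 142, 149 and 144 RPKM in CD138+ cells, against 89.8, 104 and 89.6 in GL7+ cells (log2 change 0.62, SE 0.06, adjusted p = 7.6e-07). Optn, which encodes optineurin, had 7.81, 9.63 and 8.45 RPKM in CD138+ cells, against 11.3, 11.5 and 12.1 in GL7+ cells (log2 change -0.39, SE 0.10, adjusted p = 0.0034). In each case the groups were apart, with CD138+ cells higher for Nbr1 and Sqstm1 and lower for Optn. Tfeb had 11.2, 10.5 and 10.3 RPKM in CD138+ DMSO cells, against 18.7, 21.9 and 20.4 in GL7+ DMSO cells (log2 change -0.87, SE 0.10, adjusted p = 2.2e-06), the lowest CD138+ to GL7+ ratio among the autophagy genes tested.

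The same fractions were also measured in the GSK-J4 libraries, which do not enter the means of that contrast but share its estimate of spread and its filter. Each of the 14 genes that rose under DMSO had all its CD138+ GSK-J4 libraries above all its GL7+ GSK-J4 libraries, as did 91.4% of the 2374 genes called higher under DMSO and 27.1% of all tested genes. Wipi1 had 13.1, 15.5 and 13.8 RPKM in CD138+ GSK-J4 cells, against 2.07, 2.41 and 2.22 in GL7+ GSK-J4 cells, and Atg13 had 35.1, 41.05 and 41.5, against 16.6, 15.9 and 15.4. Of the 4 genes that fell, Tfeb and Optn had CD138+ GSK-J4 libraries below all GL7+ GSK-J4 libraries, as did 89.2% of the 4005 genes called lower under DMSO and 43.1% of all tested genes, and Atg10 and Atg16l1 overlapped. Tfeb had 7.56, 8.17 and 9.09 RPKM in CD138+ GSK-J4 cells, against 17.8, 16.6 and 18.1 in GL7+ GSK-J4 cells.

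**Figure D2:**
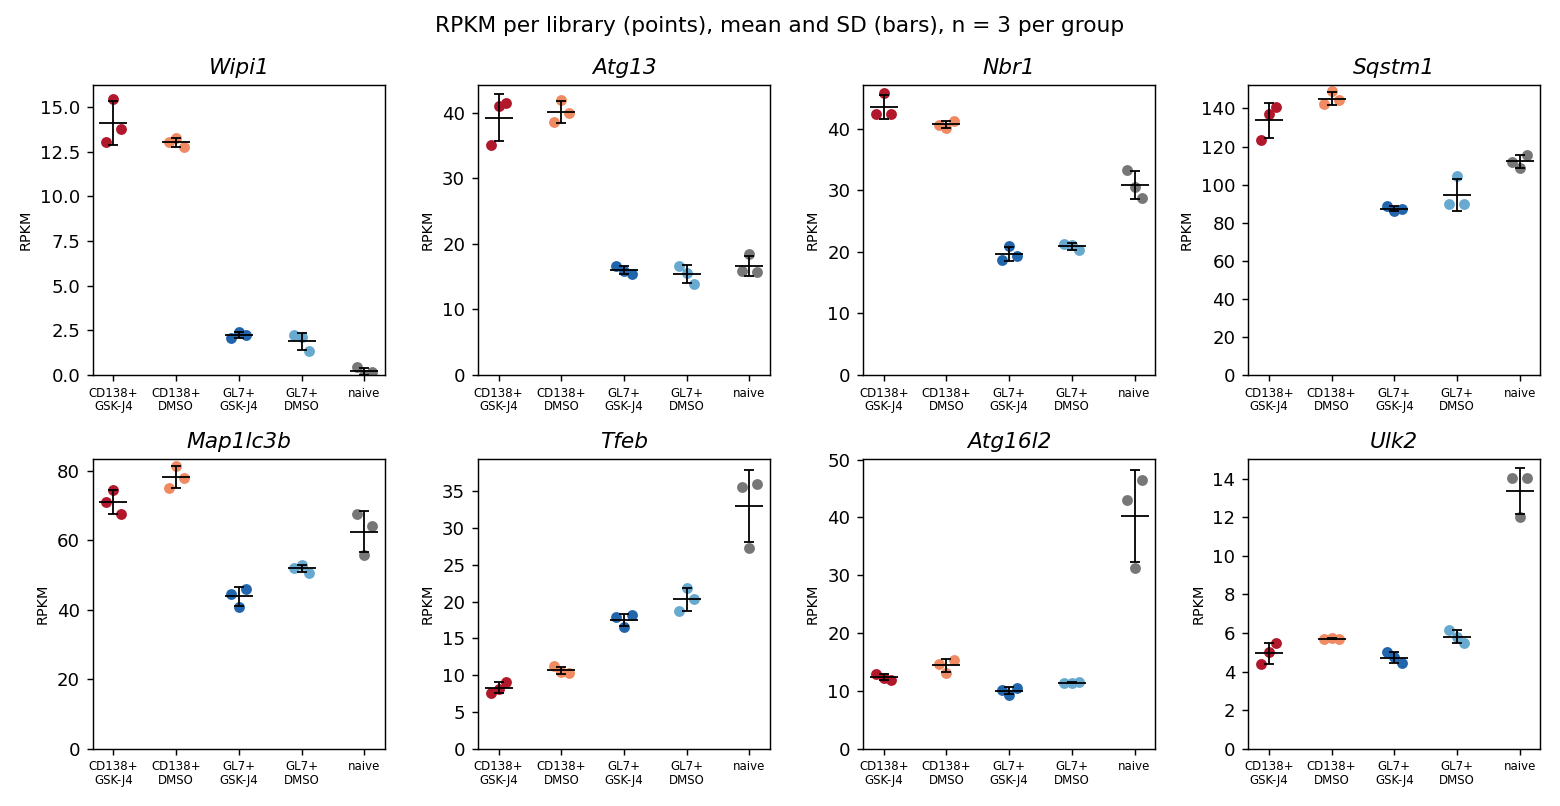
Level in RPKM (vertical axis, from 0) of Wipi1, Atg13, Nbr1, Sqstm1, Map1lc3b, Tfeb, Atg16l2 and Ulk2 in the 5 groups. Points are libraries and bars are mean and SD (n = 3 per group). Wipi1 and Atg13 stand apart in the CD138+ libraries of both treatments, and Tfeb, Atg16l2 and Ulk2 are highest in naive cells.

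**Figure D3:**
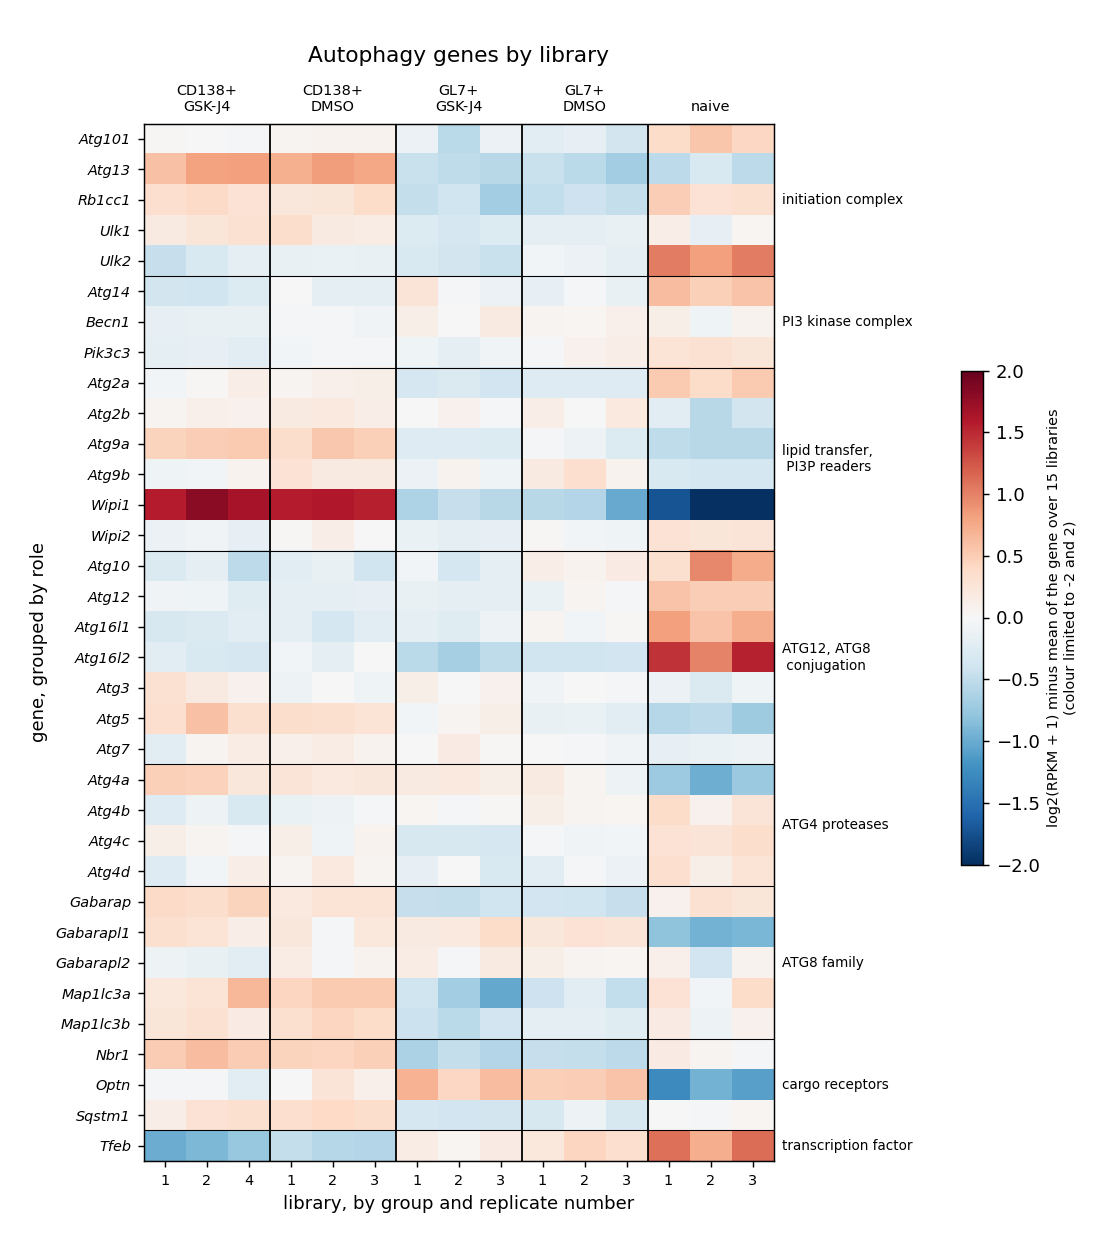
Autophagy genes (rows, by role) in 15 libraries (columns, by group). Colour is log2(RPKM + 1) minus the gene's mean over the 15 libraries, limited to -2 and 2. Wipi1 and Atg13 are high in the 6 CD138+ libraries, and Tfeb and Atg16l2 are high in the 3 naive libraries.

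Against naive cells, the cultured cells showed both falls and rises, which differed by role. In CD138+ DMSO cells all 3 cargo receptors and 2 ATG8 genes were higher, with none lower in these roles. In GL7+ DMSO cells 3 initiation genes were lower and none higher. In both fractions 2 genes of the PI3 kinase complex and Tfeb were lower, with none higher in these roles. GL7+ DMSO cells had 7 genes higher and 20 lower of 33 (81.8%), where 81.7% of all tested genes were called, 41.3% higher and 40.3% lower. CD138+ DMSO cells had 13 higher and 13 lower (78.8%), where 83.4% of all genes were called, 39.9% higher and 43.5% lower. The median log2 change of the 33 genes was -0.26 in GL7+ cells (0.01 over all tested genes) and 0.04 in CD138+ cells (-0.05). These contrasts share the naive libraries, so their values are set side by side and not counted as independent. Markers of other cells also moved: 11 myeloid markers summed to 1.95 to 4.01 RPKM in CD138+ DMSO and 2.38 to 4.30 in GL7+ DMSO cells, against 65.3 to 112 in naive cells. Mean Lyz2, of the myeloid list, was 61.7 RPKM in naive, 1.89 in CD138+ DMSO and 0.320 in GL7+ DMSO cells. Mean Itgam, of the same list, was 2.83 RPKM in naive, 0.486 in CD138+ DMSO and 2.71 in GL7+ DMSO cells. The 9 T cell markers summed to 8.58 to 9.10 and 4.16 to 4.67 RPKM in these cultured groups, against 24.5 to 30.1 in naive cells, where Cd3e averaged 0.786 RPKM, while it was at 0 in every cultured group. The 6 erythroid and platelet markers summed to 1.47 to 2.03 and 5.61 to 6.85 RPKM, against 70.4 to 86.2 in naive cells, and the 7 NK markers to 0.329 to 1.04 and 0.299 to 0.821, against 4.47 to 9.46. The 6 dendritic cell markers summed to 9.77 to 11.1 RPKM in CD138+ DMSO and 31.3 to 33.1 in GL7+ DMSO cells, against 27.4 to 30.6 in naive cells. They were thus higher, not lower, in GL7+ cells. In each of these cultured groups, 10 of 11 myeloid, 8 of 9 T cell and 5 of 6 dendritic cell markers had a mean under 1 RPKM. The part of all these markers in the results was not tested.

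Several initiation and conjugation genes were lower in both cultured fractions than in naive cells. Ulk2 had 5.69, 5.72 and 5.70 RPKM in CD138+ DMSO and 6.15, 5.80 and 5.46 in GL7+ DMSO cells, against 14.03, 12.01 and 14.04 in naive cells. The log2 change against naive cells was -1.10 in CD138+ cells (adjusted p = 6.2e-09) and -1.08 in GL7+ cells (adjusted p = 8.9e-09). No cultured library reached a naive one. Atg16l2 had 14.7, 13.1 and 15.4 RPKM in CD138+ cells and 11.4, 11.4 and 11.5 in GL7+ cells, against 43.1, 31.2 and 46.4 in naive cells (log2 changes -1.40 and -1.71). Atg16l1 had 3.34, 2.92 and 3.31 RPKM in CD138+ cells and 4.20, 3.78 and 4.06 in GL7+ cells, against 7.81, 6.45 and 7.28 in naive cells (-0.96 and -0.70). Both ATG16-like genes thus stood highest in naive cells, with no overlap, and both passed in each contrast. Atg12, the ubiquitin-like protein joined to ATG5, had 11.7, 11.7 and 11.8 RPKM in CD138+ cells and 12.02, 13.9 and 13.2 in GL7+ cells, against 20.2, 19.2 and 19.2 in naive cells (-0.69 and -0.55).

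Atg101 had 16.3, 16.5 and 16.4 RPKM in CD138+ and 13.3, 13.8 and 11.9 in GL7+ DMSO cells, against 20.4, 23.4 and 21.1 in naive cells. It was lower in GL7+ cells (-0.69, adjusted p = 9.1e-06) and in CD138+ cells (-0.38, adjusted p = 0.0021), where voom gave -0.20 (adjusted p = 0.077). Rb1cc1 passed in GL7+ cells and not in CD138+ cells: it was at 5.72, 6.12 and 5.79 RPKM there, against 12.3, 10.6 and 10.8 in naive cells (-0.83, adjusted p = 1.6e-07), and at -0.09 in CD138+ cells (adjusted p = 0.3). The direct test of CD138+ against GL7+ cells for this gene is given above. Atg13 was the reverse case, with 38.5, 41.9 and 39.98 RPKM in CD138+ cells, against 15.8, 18.4 and 15.7 in naive cells (1.22, adjusted p = 1.4e-09), and -0.11 in GL7+ cells (adjusted p = 0.21). Ulk1 had 6.36, 4.94 and 5.85 RPKM in naive cells, and its change was 0.22 in CD138+ cells (adjusted p = 0.019) and -0.17 in GL7+ cells (adjusted p = 0.058). Without naive replicate 2 the GL7+ change was -0.26 (adjusted p = 0.0041). The CD138+ call was lost without naive replicate 2 (0.14, adjusted p = 0.092) or CD138+ DMSO replicate 1 (adjusted p = 0.098) and with library weights (adjusted p = 0.053), while TMM gave 0.35 and quantile normalization 0.41.

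Lipid transfer and PI3P-reader genes went both ways. Wipi1 had 18, 0 and 3 reads in the naive libraries, that is 0.431, 0 and 0.153 RPKM, so it was close to undetected before culture. It rose by 3.57 in CD138+ DMSO cells (adjusted p = 1.7e-12) and by 1.28 in GL7+ DMSO cells (adjusted p = 3.2e-07). At so low a naive level the size depends on the pseudocount, and with 0.1 it was 5.79 and 3.04. Atg9a had 9.57, 11.1 and 10.5 RPKM in CD138+ cells and 7.03, 6.71 and 5.87 in GL7+ cells, against 4.80, 4.66 and 4.65 in naive cells (0.99 and 0.40). Atg2b had 12.8, 12.9 and 12.2 RPKM in CD138+ cells and 12.2, 11.2 and 12.8 in GL7+ cells, against 9.29, 7.23 and 8.36 in naive cells (0.56 and 0.49). Its paralog Atg2a went the other way, with 9.997, 10.3 and 10.4 RPKM in CD138+ cells and 7.81, 7.86 and 7.82 in GL7+ cells, against 14.1, 12.6 and 14.2 in naive cells (-0.38 and -0.73). All of these passed the test in both contrasts, and the CD138+ change of Atg2a was -0.24 with TMM.

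Receptor and ATG8 genes also differed among themselves. Optn had 7.81, 9.63 and 8.45 RPKM in CD138+ DMSO cells and 11.3, 11.5 and 12.1 in GL7+ DMSO cells, against 2.65, 3.58 and 3.15 in naive cells, a log2 change of 1.22 (adjusted p = 1.9e-08) and 1.62 (adjusted p = 8.5e-10). Gabarapl1 had 14.6, 12.1 and 14.4 RPKM in CD138+ cells and 14.5, 15.3 and 14.96 in GL7+ cells, against 6.61, 5.94 and 6.09 in naive cells (1.02 and 1.14). The protease gene Atg4a, which like its relatives trims and releases ATG8 proteins, had 16.97, 16.1 and 16.4 RPKM in CD138+ cells and 15.9, 14.5 and 12.98 in GL7+ cells, against 8.09, 6.58 and 7.98 in naive cells (1.04 and 0.85). These 3 genes were higher in every cultured library of both DMSO groups than in any naive library. Atg5 had 32.5, 31.8 and 30.7 RPKM in CD138+ cells and 22.5, 22.7 and 21.4 in GL7+ cells, against 16.6, 17.1 and 15.01 in naive cells (0.92 and 0.43). The gene Tfeb had 35.6, 27.3 and 36.04 RPKM in naive cells, and was lower in CD138+ cells by a log2 change of -1.53 (adjusted p = 8.7e-10) and in GL7+ cells by -0.66 (adjusted p = 1.3e-05). Tfeb thus stood highest in naive cells, lower in GL7+ and lowest in CD138+ DMSO cells, with no overlap between neighbours.

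Sqstm1 and Map1lc3b were among the genes whose calls against naive cells depended on scaling. Sqstm1 had 112, 109 and 115 RPKM in naive cells and changed by 0.37 in CD138+ cells and -0.25 in GL7+ cells. Map1lc3b had 67.4, 55.8 and 63.9 RPKM in naive cells and changed by 0.32 and -0.26. With quantile normalization the CD138+ changes were 0.01 (adjusted p = 0.84) for Sqstm1 and 0.04 (adjusted p = 0.51) for Map1lc3b, and the GL7+ changes were -0.62 and -0.56. With TMM scaling the GL7+ changes were -0.14 (adjusted p = 0.069) and -0.15 (adjusted p = 0.056). TMM moved the median of all tested genes by 0.136 in CD138+ against naive cells and by 0.0955 in GL7+ against naive cells. It also ended the calls of Pik3c3 (adjusted p = 0.083) and Atg4b (0.39) in GL7+ cells and of Wipi2 (0.23) in CD138+ cells, as did voom (0.14, 0.16 and 0.25 for the same 3 genes). With the deposited scaling and all libraries at equal weight, Becn1 and Gabarapl2 passed in none of the 6 contrasts, with 42.8, 36.8 and 41.5 RPKM of Becn1 and 83.4, 59.01 and 80.97 RPKM of Gabarapl2 in naive cells. In GL7+ against naive cells, Becn1 was called higher with TMM (0.13, adjusted p = 0.044) and lower with quantile normalization (-0.19, adjusted p = 0.0017). In CD138+ against naive cells it was at -0.25 with quantile normalization (adjusted p = 0.00014), -0.13 with library weights (adjusted p = 0.019) and -0.15 without naive replicate 2 (adjusted p = 0.01). Gabarapl2 was called higher with TMM in GL7+ (0.24, adjusted p = 0.034) and CD138+ cells (0.28, adjusted p = 0.016), and in CD138+ cells with voom (0.20, adjusted p = 0.035). Gabarap in CD138+ against naive cells (0.04, adjusted p = 0.5) was also called in opposite directions, at 0.19 with TMM (adjusted p = 0.011) and -0.32 with quantile normalization (adjusted p = 1.8e-06). The GL7+ call of Atg4b (log2 change -0.17, adjusted p = 0.043) was also lost without naive replicate 1 (adjusted p = 0.2) or 3 (0.09), GL7+ DMSO replicate 2 or 3 (0.1 each), CD138+ DMSO replicate 2 (0.052) or GL7+ GSK-J4 replicate 1 or 3 (0.052 and 0.051), with no filter (0.054) and with reads thinned (0.16).

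Few autophagy genes passed the test with GSK-J4, and their changes were small. In CD138+ cells Atg3 rose and Tfeb and Wipi2 fell, which is 3 of 33 genes (9.09%), where 13.2% of all tested genes were called, 4.61% higher and 8.61% lower. In GL7+ cells Map1lc3b, Atg4c and Pik3c3 fell and none rose, again 3 of 33 (9.09%), where 13.5% of all tested genes were called, 5.81% higher and 7.71% lower. The largest changes were small, from -0.33 to 0.25 in CD138+ cells and from -0.34 to 0.21 in GL7+ cells. The median was -0.07 in CD138+ cells (all tested genes -0.03) and -0.08 in GL7+ cells (all tested genes -0.01). In CD138+ cells 13 of 33 genes had every GSK-J4 library below every DMSO library and 3 had every one above, against 22.4% and 14.4% of all tested genes. In GL7+ cells 14 were below and 3 above, against 21.6% and 19.1%. Among all called genes in CD138+ cells 34.9% were higher, and 45.5% with quantile normalization. At an unadjusted p under 0.05 stood 8 genes in CD138+ and 10 in GL7+ cells.

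Among the genes called in CD138+ cells, Atg3, the enzyme that passes ATG8 proteins to the membrane lipid, had 24.5, 22.4 and 20.96 RPKM with GSK-J4, against 18.3, 19.5 and 18.6 with DMSO (log2 change 0.25, SE 0.07, adjusted p = 0.021). Tfeb had 7.56, 8.17 and 9.09 RPKM with GSK-J4, against 11.2, 10.5 and 10.3 with DMSO (log2 change -0.33, SE 0.10, adjusted p = 0.034). Wipi2 had 20.2, 20.9 and 19.5 RPKM with GSK-J4, against 22.4, 24.1 and 21.9 with DMSO (log2 change -0.17, SE 0.05, adjusted p = 0.038). The groups did not overlap for any of the 3. With the mouse as a block, Atg3 kept its call and Tfeb (adjusted p = 0.06) and Wipi2 (0.11) did not. Each call was also lost in some of the fits that left out a single library. Leaving out any CD138+ library also lowered the share of all tested genes called, from 13.2% to between 7.61% and 9.61%. Atg3 lost its call without CD138+ GSK-J4 replicate 1 (adjusted p = 0.086) or 2 (0.054) or DMSO replicate 1 (0.078) or 3 (0.068). Its log2 change in those fits was 0.20 to 0.26. Tfeb lost it without GSK-J4 replicate 1 (0.12) or 2 (0.087) or any DMSO library (0.068 to 0.12). Wipi2 lost it without any CD138+ GSK-J4 library (0.05 to 0.12), DMSO replicate 1 (0.078) or 2 (0.16), or GL7+ GSK-J4 replicate 1 (0.051). With reads thinned Atg3 and Tfeb passed and Wipi2 did not (0.18), with no filter Tfeb did not (0.064), and with quantile normalization Tfeb (0.084) and Wipi2 (0.072) did not. Markers moved with treatment as well: the 8 mature B cell markers summed to 828 to 871 RPKM with GSK-J4 and 1037 to 1098 with DMSO. The 8 activated B cell markers summed to 112 to 143 RPKM with GSK-J4 and 173 to 181 with DMSO, and the 6 dendritic cell markers to 5.60 to 7.12 and 9.77 to 11.1. The 9 T cell markers summed to 4.88 to 6.83 RPKM with GSK-J4 and 8.58 to 9.10 with DMSO, with Cd3e at 0 in both groups. In both groups, 5 of the 6 dendritic cell and 8 of the 9 T cell markers had a mean under 1 RPKM. Those sums thus rest on few genes. None of these sums overlapped between the treatments, and their part in these changes was not tested.

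In GL7+ cells, Map1lc3b had 44.6, 40.9 and 45.96 RPKM with GSK-J4, against 52.1, 52.8 and 50.7 with DMSO (log2 change -0.24, SE 0.07, adjusted p = 0.028). Atg4c, a protease with a level near the filter, had 1.13, 1.14 and 1.13 RPKM with GSK-J4, against 1.60, 1.53 and 1.59 with DMSO (log2 change -0.27, SE 0.08, adjusted p = 0.03). Pik3c3 had 15.9, 14.7 and 16.1 RPKM with GSK-J4, against 16.7, 18.1 and 18.7 with DMSO (log2 change -0.18, SE 0.05, adjusted p = 0.033). The GSK-J4 libraries lay below the DMSO libraries for all 3, with no overlap. With reads thinned none of the 3 passed: Map1lc3b had an adjusted p of 0.054, Pik3c3 of 0.086 and Atg4c of 0.27. Quantile normalization ended the calls of Pik3c3 (0.053) and Atg4c (0.11), and TMM (0.061) and voom (0.059) that of Pik3c3. Without single libraries, Atg4c lost its call for each of the 6 GL7+ libraries (0.062 to 0.097). Map1lc3b lost it without GSK-J4 replicate 1 (0.051) or 2 (0.13) or any DMSO library (0.059 to 0.085), and Pik3c3 without GSK-J4 replicate 1 (0.056) or 2 (0.14) or DMSO replicate 2 (0.093) or 3 (0.14). The size for Atg4c depends on the pseudocount, being -0.44 with 0.1, and was -0.46 with voom. The mature B cell markers summed to 1260 to 1441 RPKM with GSK-J4 and 1666 to 1758 with DMSO in these cells, the activated B cell markers to 358 to 405 and 461 to 477, and the dendritic cell markers to 21.01 to 22.03 and 31.3 to 33.1. The T cell markers summed to 4.97 to 5.27 RPKM with GSK-J4 and 4.16 to 4.67 with DMSO, the erythroid and platelet markers to 9 to 9.74 and 5.61 to 6.85, and plasmablast markers were higher with GSK-J4, as given above. In both GL7+ groups, 5 of 6 dendritic cell, 8 of 9 T cell and 5 of 6 erythroid and platelet markers had a mean under 1 RPKM. Whether these marker shifts bear on the changes was not tested.

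**Figure D4:**
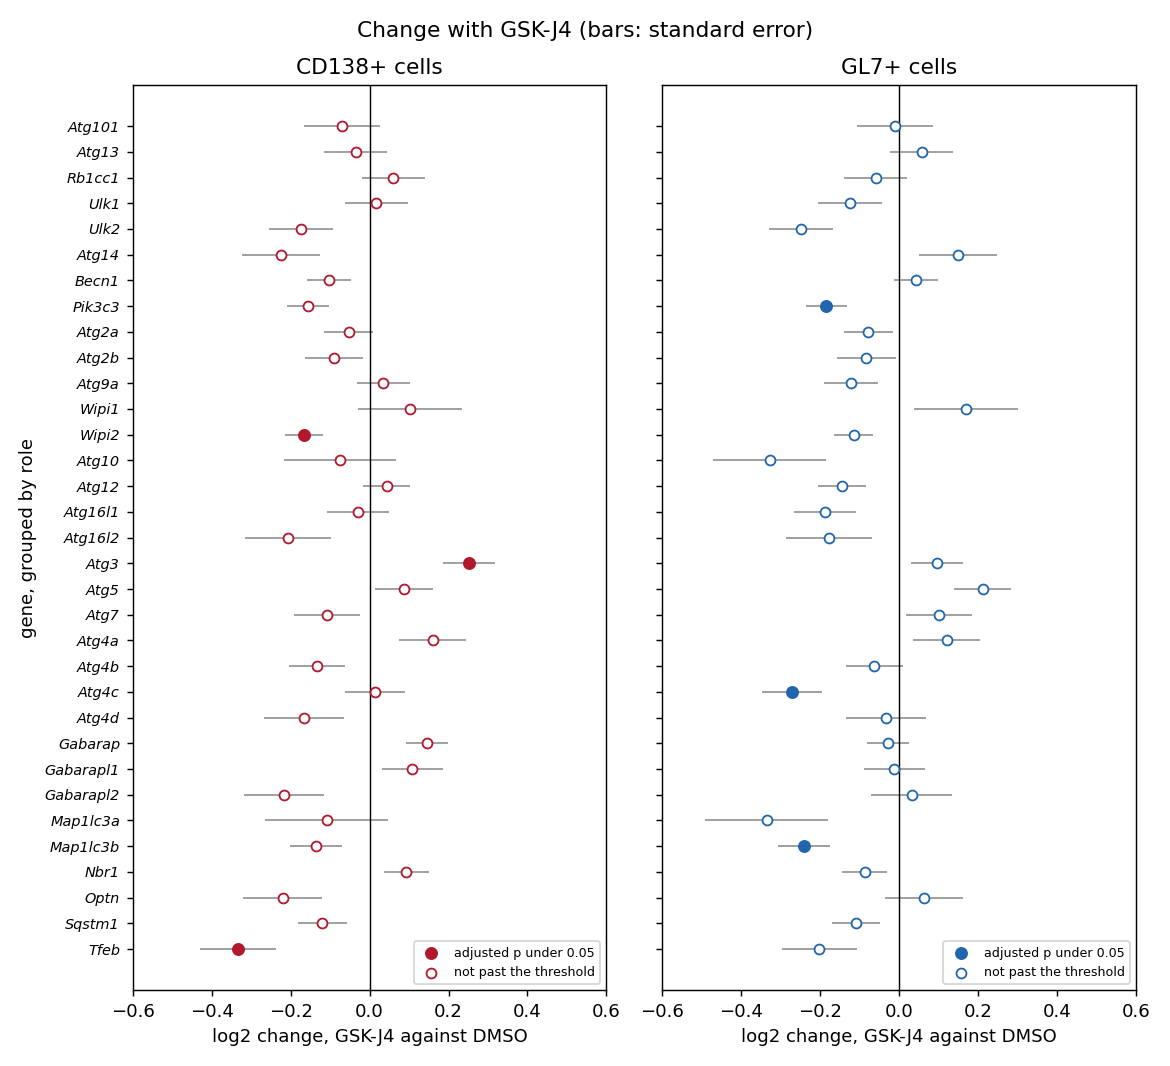
Log2 change of each autophagy gene with GSK-J4 against DMSO, on the log2(RPKM + 1) scale, with bars of 1 SE, in CD138+ and in GL7+ cells. Filled points have an adjusted p under 0.05. Changes range from -0.33 to 0.25 in CD138+ and from -0.34 to 0.21 in GL7+ cells.

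Genes of the core machinery that are often used as readouts did not pass in most of these tests. Ulk1 had 6.58, 6.87 and 7.25 RPKM with GSK-J4, against 7.48, 6.55 and 6.42 with DMSO in CD138+ cells (log2 change 0.02, adjusted p = 0.93), and 4.51, 4.31 and 4.50 against 4.87, 4.86 and 5.05 in GL7+ cells (-0.12, adjusted p = 0.34). Becn1 had 34.8, 35.2 and 35.4 RPKM with GSK-J4, against 38.2, 38.1 and 37.3 with DMSO in CD138+ cells (-0.10, adjusted p = 0.26), and 42.9, 39.7 and 44.8 against 40.9, 40.5 and 42.01 in GL7+ cells (0.04, adjusted p = 0.68). Sqstm1 had 123, 137 and 141 RPKM with GSK-J4, against 142, 149 and 144 with DMSO in CD138+ cells (-0.12, adjusted p = 0.23), and 88.5, 86.2 and 87.4 against 89.8, 104 and 89.6 in GL7+ cells (-0.11, adjusted p = 0.27). Neither Ulk1 nor Becn1 nor Sqstm1 passed in either fraction. Map1lc3b in CD138+ cells had 71.03, 74.5 and 67.6 RPKM with GSK-J4, against 75.03, 81.4 and 77.9 with DMSO (-0.14, adjusted p = 0.21). Tfeb in GL7+ cells had 17.8, 16.6 and 18.1 RPKM with GSK-J4, against 18.7, 21.9 and 20.4 with DMSO (-0.20, adjusted p = 0.19). The summed level of the ATG8 family was 358 ± 1.51 RPKM with GSK-J4 and 357 ± 4.50 with DMSO in CD138+ cells, and 254 ± 12.3 with GSK-J4 and 263 ± 5.85 with DMSO in GL7+ cells. Within that sum, Gabarap took 53.2 to 56.2% with GSK-J4 and 47.9 to 50.2% with DMSO in CD138+ cells, and 42.1 to 44.0% with GSK-J4 and 41.9 to 42.3% with DMSO in GL7+ cells. Gabarap itself did not pass in CD138+ (0.15, adjusted p = 0.09) or GL7+ cells (-0.03, adjusted p = 0.78). In CD138+ cells it passed with quantile normalization (0.026) and library weights (0.037), and without naive replicate 1 (0.031) or 2 (0.042).

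No autophagy gene had an effect of GSK-J4 that differed between the fractions at an adjusted p under 0.05, where 0.966% of all tested genes did, 0.322% with a higher effect in CD138+ cells and 0.644% with a lower one. Of those called, 33.3% had the higher effect in CD138+ cells, and 21.7% with TMM scaling. At an unadjusted p under 0.05 stood 5 of the 33. The most negative difference was that of Atg14, at -0.37 (adjusted p = 0.24), whose change was -0.23 in CD138+ and 0.15 in GL7+ cells. Of the alternatives run, Atg14 passed only with library weights (-0.45, adjusted p = 0.045). The most positive was that of Atg4c, at 0.28 (adjusted p = 0.25), with 0.01 in CD138+ and -0.27 in GL7+ cells. The calls made in a single fraction are therefore not shown to differ between fractions. Counts of called genes depended on naive replicate 2, although it is in neither group of these contrasts. Without it, which changes the spread estimate and leaves 10496 genes tested, 7 genes passed in CD138+ and 6 in GL7+ cells, with 20.8% and 21.7% of all tested genes. The added genes were Pik3c3, Atg16l2, Gabarap and Gabarapl2 in CD138+ cells and Ulk2, Atg5 and Tfeb in GL7+ cells (adjusted p = 0.018 to 0.048). Library weights added the same genes in CD138+ cells, and Ulk2, Wipi2, Atg5, Atg10 and Atg16l1 in GL7+ cells. In CD138+ cells 0 genes passed without GSK-J4 replicate 1 or 2 or DMSO replicate 1, and 1 without DMSO replicate 2 or 3. In GL7+ cells 0 passed without GSK-J4 replicate 1 or 2 or DMSO replicate 2 or 3, and 1 without DMSO replicate 1.

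Beyond the 34 genes, 42 further genes of autophagy and mitophagy were examined, of which 38 were tested. In CD138+ cells 1 rose and 4 fell with GSK-J4, which is 13.2% and the same share as over all tested genes (13.2%). In GL7+ cells 1 rose and 5 fell, or 15.8%, near the 13.5% of all tested genes. Bnip3l, a receptor that marks mitochondria for autophagy, had 43.4, 39.7 and 29.8 RPKM with GSK-J4, against 57.8, 59.2 and 54.1 with DMSO in CD138+ cells (log2 change -0.60, SE 0.16, adjusted p = 0.021). In GL7+ cells it had 56.8, 49.7 and 36.6 with GSK-J4, against 84.4, 87.9 and 67.4 with DMSO (log2 change -0.75, SE 0.16, adjusted p = 0.0068). Rubcn, an inhibitor of the PI3 kinase complex, fell by 0.37 in CD138+ cells (adjusted p = 0.013) and by 0.36 in GL7+ cells (adjusted p = 0.015). Those 2 genes had no overlap between GSK-J4 and DMSO libraries in either fraction. Bnip3, a homolog of Bnip3l, fell in GL7+ cells, with 60.02, 49.8 and 34.2 RPKM with GSK-J4, against 81.7, 87.3 and 67.1 with DMSO (log2 change -0.73, SE 0.21, adjusted p = 0.032). In CD138+ cells Bnip3 was at -0.59 and did not pass (adjusted p = 0.078). Its effect was not shown to differ between the fractions (difference 0.14, adjusted p = 0.9). Calcoco1, a receptor for the endoplasmic reticulum, fell in GL7+ cells, with 3.47, 2.97 and 3.07 RPKM with GSK-J4, against 5.91, 4.79 and 5.48 with DMSO (log2 change -0.61, SE 0.09, adjusted p = 0.00066). The PI3P reader Wdr45 (-0.39, adjusted p = 0.019) also fell in GL7+ cells, and the kinase gene Tbk1 rose slightly (0.16, adjusted p = 0.04999). In CD138+ cells Tecpr1 (-0.26, adjusted p = 0.046) and Uvrag (-0.19, adjusted p = 0.048) fell and Sh3glb1 rose (0.24, adjusted p = 0.036). With the mouse as a block, Tecpr1 (0.17) and Sh3glb1 (0.068) lost their calls. In the fit of cell states under DMSO, 17 of the 38 were higher and 9 lower in CD138+ against GL7+ cells (68.4%), where 58.7% of all tested genes were called, 21.8% higher and 36.9% lower.

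Most of these calls were also lost in some of the fits that left out a single library. Bnip3l in CD138+ cells was lost without CD138+ GSK-J4 replicate 4 (-0.45, adjusted p = 0.09) or DMSO replicate 1 (0.065) or 2 (0.07), and in GL7+ cells it kept its call under every alternative. Rubcn was lost in CD138+ cells without GSK-J4 replicate 1 (0.054) or DMSO replicate 1 (0.063) or 2 (0.055), and in GL7+ cells without GSK-J4 replicate 2 (0.066) or 3 (0.058) or DMSO replicate 1 (0.07) or 3 (0.058). Bnip3 was lost with no filter (0.073) and without GL7+ GSK-J4 replicate 2 (0.071) or 3 (0.14) or DMSO replicate 1 (0.099) or 2 (0.1), and Wdr45 with reads thinned (0.056) and without GSK-J4 replicate 1 (0.056) or 2 (0.09) or DMSO replicate 1 (0.06) or 2 (0.071). Calcoco1 kept its call under every alternative. Tecpr1, Uvrag, Sh3glb1 and Tbk1 each lost theirs without most of the libraries of their own contrast, at adjusted p up to 0.2. Each also lost it without some libraries outside that contrast, where the log2 change itself stayed the same. For example, Uvrag stayed at -0.19 without GL7+ GSK-J4 replicate 1 (adjusted p = 0.06). Tbk1 stayed at 0.16 without CD138+ GSK-J4 replicate 2 (adjusted p = 0.063).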

How the data were processed

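Poly(A) RNA of 15 libraries in 5 groups was analysed. The deposited values are RPKM per gene with a gene length, per the file headers. Reads were aligned to mm9 with TopHat2, per the submitters' processing notes. Version, counting tool, annotation and strand setting: not given in the sources used here. RPKM times length summed to the same total in every library. Low values, up to 20 reads, fell on whole steps (within 0.1 read in 100% of cases), which gave depths of 2636004 to 13190023 reads. Of 21761 identifiers, 21615 matched RefSeq, used for names and promoters (GRCm38.p6).

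The 10866 genes that reached 1 RPKM in 3 or more libraries were tested with limma 3.58.1 (R 4.3.3) on log2(RPKM + 1), all libraries in 1 fit with a trended variance and Benjamini-Hochberg adjustment over all genes. The fit was tested on simulated data. Figures used matplotlib 3.10.9 in python 3.11.15.

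The genes and lists were chosen with earlier results of these data known. Per-library values were given for every gene past the threshold with GSK-J4, for up to 6 genes per direction in each comparison of cell states (no overlap, and 5 RPKM or more on average in whichever group was higher), and always for Ulk1, Becn1, Map1lc3b, Sqstm1 and Tfeb. Further autophagy genes were named where called with GSK-J4. Values given outside this rule, such as those of Atg9b and of Wipi1 against naive cells, were chosen after they were seen.

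Replicate numbers name the mouse, per the labels, and thereby pair libraries across groups. After group means were removed, the median r was 0.094 between libraries of a mouse (-0.031 to 0.19, 15 pairs) and -0.031 between mice (39 pairs). The library numbered 4 formed a block level of its own, so it did not inform the CD138+ GSK-J4 mean in the block fit. Alternatives were a pseudocount of 0.1, no filter, TMM, quantile normalization, library weights, the mouse as a block and leaving out each library. A voom fit on recovered reads and a fit with reads thinned to at most 6241186 per library, the depth of the shallowest cultured one (naive replicates 2 and 3 were shallower and left as they were), were added after seeing the data.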

Additional observations from a re-analysis of the deposited data

How the results depend on the processing

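For 88 gene results past the threshold, 2024 values were recomputed under 23 alternatives: 1862 stayed past it, 162 did not, and 0 changed sign. Of 77 calls of autophagy genes, 56 held under every alternative, with 14 of 18 in CD138+ against GL7+ cells, 22 of 27 in GL7+ against naive cells, 20 of 26 in CD138+ against naive cells and 0 of 3 in each GSK-J4 comparison. The cause of the lost calls was not tested. With GSK-J4 in CD138+ cells, 3 genes were called, against 7 with library weights, 1 with the mouse as a block and 0 to 7 without single libraries. With GSK-J4 in GL7+ cells, 3 were called, against 1 with quantile normalization, 8 with library weights, 5 with voom on recovered reads, 0 with reads thinned and 0 to 6 without single libraries. For the difference of the GSK-J4 effect, 0 were called, 1 with library weights and 0 to 0 without single libraries. Without single libraries, 15 to 22 of the CD138+ against GL7+ calls, 26 to 28 of GL7+ against naive and 25 to 26 of CD138+ against naive were made. Across all genes, 1437 were called in CD138+ cells with GSK-J4, and 927 with the mouse as a block, 2688 with library weights. Without CD138+ GSK-J4 replicate 4, 996 were called there. In GL7+ cells 1469 were called, 1539 with the mouse as a block, 2968 with library weights and 2366 with voom. The block also ended the call of Atg4b in GL7+ against naive cells (adjusted p = 0.051) and, among the autophagy genes called, no other call than those named above. It added a call for Atg4d in CD138+ against GL7+ cells (adjusted p = 0.038) and for no other autophagy gene. In the same contrast Pik3c3 (0.039) and Atg12 (0.014) passed with reads thinned, Wipi2 with TMM (0.046), quantile normalization (0.014) and voom (0.047), and Atg7 with quantile normalization (0.032). The edgeR test planned for whole reads was not run, since the table holds RPKM; voom took its place. Without a lost call, the change moved by over 1.5 times in Atg7 (0.24, and 0.37 with TMM, 0.43 with quantile normalization, 0.45 with voom), Pik3c3 (-0.31, and -0.17 with TMM or voom), Atg4b (-0.33, and -0.19 with TMM), Atg4c (-0.27, and -0.17 with TMM), Atg101 (-0.38, and -0.24 with TMM), Ulk1 (0.22, and 0.34 with voom) and Wipi1 (3.57, and 5.99 with voom) in CD138+ against naive cells. It did so in GL7+ against naive cells in Gabarap (-0.62, and -0.98 with quantile normalization), Atg4c (-0.35, and -0.20 with quantile normalization), Sqstm1 (-0.25, and -0.15 with voom) and Wipi1 (1.28, and 3.16 with voom), beside those named above. Calls were also lost for Atg4c in CD138+ against naive cells with quantile normalization (adjusted p = 0.59) and for Atg10 in GL7+ against naive cells with voom (adjusted p = 0.061). Depth limits the low genes: Wipi1 and Atg9b had 0 reads in some naive libraries.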
